A study of Mus musculus with 7 samples.

Results

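Arterial-side capillary endothelial cells line the first stretch of the brain's capillaries after the arterioles. Blood vessels of the brain change their gene programme step by step from arteries through capillaries to veins. Arterial endothelium is known for Notch and ephrin-B2 signalling and for elastic matrix, and the venous end of the capillaries for the transcription factor Nr2f2 and for adhesion molecules. Capillary endothelium in between carries most of the transporters of the blood-brain barrier.

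The cells were taken from 7 droplet single cell RNA libraries, each made from 1 brain hemisphere of a C57Bl6 mouse (a common inbred strain) that had received no treatment. Of these, 3 are from 12-month-old and 4 from 3-month-old animals. Cerebellum, brain stem and olfactory bulbs had been removed, collagenase was used to free the cells, and those kept were pulled down with beads that bind CD31 (encoded by Pecam1), which endothelium carries on its surface. No group carried an allele or an agent that the other lacked. Cell Ranger 4.0.0 was used for the 12-month libraries, which are single-indexed, and Cell Ranger 6.1.1 for the 3-month libraries, which are dual-indexed, so that age, library type, counting version and depth cannot be told apart.

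Members were chosen by detected genes, where a gene counts as detected with at least 1 unique molecular identifier (UMI, a tag for 1 captured mRNA). Barcodes needed at least 500 genes and at most 15% mitochondrial UMIs. Endothelial barcodes showed at least 3 of 8 endothelial genes and at most 1 UMI in all of Vtn, Acta2 and C1qa, genes of pericytes, smooth muscle and microglia. A member showed at least 2 of the 5 genes Slc26a10, Lrrn3, Sema3c, Rad54b and Sema3g and none of Bmx, Gkn3, Vegfc, Fbln5, Slc38a5, Vwf and Plvap, genes of arteries, veins and fenestrated vessels. This left 3688 members of 31753 endothelial and 43091 deposited barcodes. The 12-month libraries held 188, 438 and 887 members, and the 3-month libraries 477, 504, 657 and 537. None of the 23 genes used in these gates is reported as a result.

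The gate took the cells mainly through 2 of its genes. Sema3c was detected in 92.1% of members and Lrrn3 in 65.4%, and the pair without any other member gene made up 1283 members (34.8%). By library, Lrrn3 ran from 34.0 to 76.7% of members and from 5.18 to 48.6% of endothelial barcodes. The part of this range in the age results was not tested. Sema3c is broad in this endothelium, with 66.0% of all endothelial barcodes positive. Free RNA was gauged in 2491 microglia barcodes, with a median of 1639 UMIs against 2752 in members. They showed 3 or more of 7 microglia genes and at most 1 of the 8 endothelial genes. Among them, 0.0803% had 2 or more of the 5 genes (95% exact binomial interval 0.00973 to 0.29%, which covers counting error only). Since barcodes with more endothelial genes were left out, the rate can understate free RNA. The exclusion genes removed 8594 endothelial barcodes that had 2 or more member genes. At the threshold, 2427 members had exactly 2 of the 5 genes and 4086 endothelial barcodes outside had exactly 1. Those inside had a median of 2384 UMIs and those outside 1723.5, and the level of Unc5b was 93.0 and 63.1 CPM (UMIs of the gene over all UMIs of the summed barcodes, scaled to the same total in every library).

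Levels were compared with those in 3 other sets of endothelial barcodes of the same 7 libraries. Arterial cells (2835) had at least 2 of Bmx, Gkn3, Vegfc and Fbln5 and neither Slc38a5 nor Plvap, with no limit on the member genes. Slc38a5 cells (2387) had Slc38a5, none of the other 6 exclusion genes and at most 1 member gene; Slc38a5 encodes an amino acid transporter of the venous side. Marker-free cells (2519) had none of the 12 member and exclusion genes. UMIs were summed per library and set, and genes were tested with edgeR's quasi-likelihood test with the library as a term, at a Benjamini-Hochberg adjusted p under 0.05 over 9375 genes. The first 2 comparator sets were cut with genes of the arterial and venous ends, so which way genes of that axis differ was set in part by the gates, and the counts describe how far the differences reach. Marker-free cells were cut to lack the member genes, so their differences from the members were set in part by the gates too. Median depth per library was 1094.5 to 4239.5 UMIs in members, 1418 to 7975 in arterial, 1121 to 3837 in Slc38a5 and 872 to 2419.5 in marker-free cells.

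The 250 bases upstream of the gene start are given for 3 genes on which the results turn, as RefSeq has them in GRCm38.p6: 2 arterial-side genes, Unc5b (chr10:60831582-60831831, minus strand) and Efnb2 (chr8:8661243-8661492, minus strand), and Cxcl12 (chr6:117168285-117168534, plus strand), which was highest in the members. Capitals mark matches, on either strand, to any of 4 short motifs. The first is TGGGAA, known as the core that the Notch factor Rbpj reads. The second is ACAATG, a core bound by transcription factors of the Sox family. The third is GATAAG, a core bound by transcription factors of the Gata family. The last is CACGTG, an E-box, which basic helix-loop-helix factors bind.
Unc5b: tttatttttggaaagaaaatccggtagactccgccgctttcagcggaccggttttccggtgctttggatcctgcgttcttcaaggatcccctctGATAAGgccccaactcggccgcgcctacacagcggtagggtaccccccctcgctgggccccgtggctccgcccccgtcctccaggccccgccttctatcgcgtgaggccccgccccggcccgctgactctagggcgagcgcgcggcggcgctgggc
Efnb2: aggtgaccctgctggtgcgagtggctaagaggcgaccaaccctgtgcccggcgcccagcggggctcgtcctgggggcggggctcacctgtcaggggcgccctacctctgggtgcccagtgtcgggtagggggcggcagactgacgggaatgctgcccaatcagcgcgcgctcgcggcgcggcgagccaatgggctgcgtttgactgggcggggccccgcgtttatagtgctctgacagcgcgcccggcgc
Cxcl12: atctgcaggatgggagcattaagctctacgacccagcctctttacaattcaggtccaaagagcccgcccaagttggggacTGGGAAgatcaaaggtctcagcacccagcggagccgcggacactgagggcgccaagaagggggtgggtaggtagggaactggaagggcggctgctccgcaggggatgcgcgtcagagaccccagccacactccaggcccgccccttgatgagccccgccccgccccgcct
Over 27025 such windows, TGGGAA occurs in 21.5%, ACAATG in 11%, GATAAG in 6.6% and CACGTG in 6.05%. Of the 22 arterial identity genes that were higher in the members than in Slc38a5 cells (described next), 17 matched a RefSeq window by symbol, and 2 of these (Crip1 and S100a6) held TGGGAA and 1 each held ACAATG (Nebl), GATAAG (Unc5b) and CACGTG (Tgfb2).

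Arterial-side capillary cells carried the arterial programme at an intermediate level. Of 35 tested genes of an arterial identity list, 22 were higher and 0 lower than in Slc38a5 cells, while 2 were higher and 30 lower than in arterial cells. The means of 31 of the 35 (88.6%) lay above those of Slc38a5 cells and below those of arterial cells, against 24% of all genes tested. Over all genes, 977 (10.4%) passed the test against Slc38a5 cells, 556 (5.93%) higher and 421 (4.49%) lower, and 2361 (25.2%) against arterial cells, 1117 (11.9%) higher and 1244 (13.3%) lower. The list's median log2 difference was 0.51 against Slc38a5 cells and -0.96 against arterial cells, with medians of 0.00 and 0.01 over all genes. Since members were cut to lack the genes that the comparators were cut to carry, this intermediate place is a description and no independent check of the label.

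A guidance receptor and an ephrin ligand show this placing. Unc5b, a netrin receptor of arterial and tip endothelium, had 36.8 to 129 CPM in the members (lowest to highest of 7 libraries, median 101), 36.8 to 231 in arterial cells (median 178) and 0 to 36.1 in Slc38a5 cells (median 22.6). Members did not overlap with Slc38a5 cells but overlapped with arterial cells, and the low end of both was the same library, 12-month replicate 1. Its log2 difference was 2.27 ± 0.13 (SE) against Slc38a5 cells (edgeR adjusted p = 2.8e-16) and -0.77 ± 0.08 against arterial cells (adjusted p = 2.2e-10). Efnb2, the ephrin-B2 ligand that marks arterial endothelium, had 32.7 to 104 CPM in the members (median 59.0), 97.7 to 196 in arterial cells (median 156) and 12.0 to 27.1 in Slc38a5 cells (median 17.2). The log2 differences of Efnb2 were 2.02 ± 0.15 against Slc38a5 cells (edgeR adjusted p = 2.9e-13) and -1.08 ± 0.09 against arterial cells (adjusted p = 5.7e-13), and the members lay above Slc38a5 cells in 7 of 7 libraries and below arterial cells in 7 of 7.

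**Figure D1:**
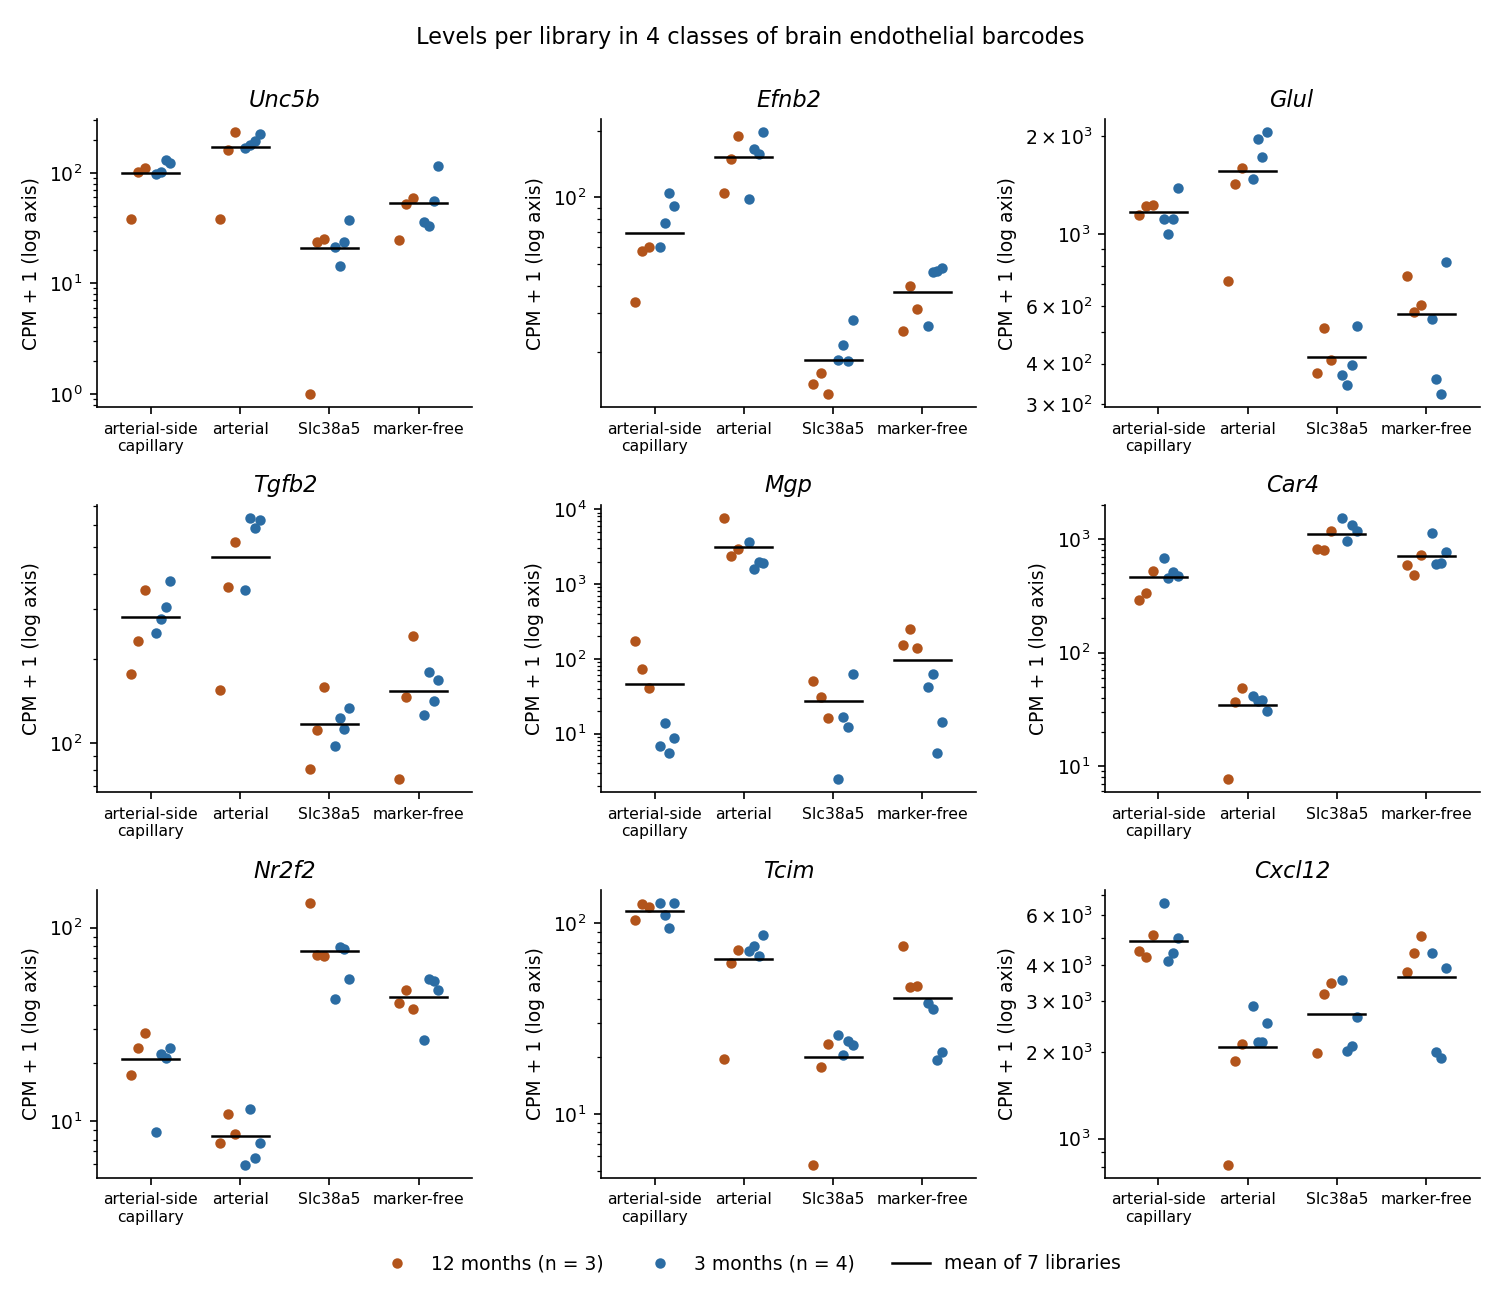
CPM + 1 on a log axis for 9 genes in arterial-side capillary, arterial, Slc38a5 and marker-free cells; points are libraries (12 months in orange, 3 months in blue) and lines are means of 7 libraries. Unc5b, Efnb2, Glul and Tgfb2 have intermediate means in the arterial-side capillary cells, at 99.5, 68.1, 1170 and 281 CPM, Mgp is high in arterial cells only among the 4 sets, and the means of Tcim and Cxcl12 are highest in the arterial-side capillary cells.

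Other genes of the arterial identity list, of varied roles, had intermediate means too. Glul, glutamine synthetase, had 999 to 1385 CPM in the members (median 1145), against 715 to 2051 in arterial cells (median 1595) and 344 to 522 in Slc38a5 cells (median 396). Tgfb2, a ligand of the TGF-beta family, averaged 281 ± 70.4 CPM in the members, 462 ± 179 in arterial cells and 116 ± 24.9 in Slc38a5 cells (SD, n = 7 libraries). Sox17, a transcription factor of arterial fate, averaged 436 ± 114, against 530 ± 127 in arterial and 290 ± 62.8 in Slc38a5 cells, and passed the test in both directions (log2 -0.31 ± 0.07 and 0.55 ± 0.08; edgeR adjusted p = 0.00065 and 9.4e-07). Alpl, tissue-nonspecific alkaline phosphatase, averaged 209 ± 52.9, against 479 ± 113 and 39.0 ± 18.5, and did not overlap with either. The lowest arterial values of Unc5b, Glul and Tgfb2 all came from 12-month replicate 1. Without that library or any other single one, each of the 16 genes named by rule against arterial cells and the 16 against Slc38a5 cells stayed past the test.

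The strongest differences from Slc38a5 cells on the high side included cell-surface and cytoskeletal genes. Lypd1, a GPI-anchored protein, averaged 61.9 ± 54.1 CPM in the members and 3.18 ± 3.56 in Slc38a5 cells (log2 4.37 ± 0.34, edgeR adjusted p = 1.7e-12). Cdh13, T-cadherin, averaged 55.4 ± 38.8 and 3.58 ± 5.47 (log2 4.07 ± 0.35), and Stmn2, a microtubule-binding stathmin best known from neurons, 177 ± 148 and 22.1 ± 26.3 (log2 3.20 ± 0.29). S100a6, a calcium-binding protein, averaged 86.3 ± 96.8 and 11.6 ± 13.4. These 4 genes varied widely among the members' libraries, with SDs close to or above the mean in Lypd1 and S100a6. Stmn2 had 491, 206 and 196 CPM in the 12-month and 92.3, 89.3, 85.1 and 81.2 CPM in the 3-month libraries, which do not overlap.

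A second set of arterial genes was far lower in the members than in arterial cells. Smooth muscle markers moved with them: the 7 markers summed to 16.8 to 118 CPM in the members and 111 to 383 CPM in arterial cells, with none at 0 in all libraries, and 1 of 5 tested (Mylk) was lower. Their part in these differences was not tested. Mgp, matrix Gla protein, an inhibitor of calcification, had 4.58 to 172 CPM in the members (median 12.7), against 1575 to 7697 CPM in arterial cells (median 2387). Its log2 difference was -6.85 ± 0.37 (edgeR adjusted p = 6.9e-18), and Mgp was one of the 8 lowest genes by fold that the naming rule took. The others were Cytl1, Bmp4, Igfbp4, Nos1, Pi16, Ptgis and Eln, of which Eln encodes elastin of the arterial wall, Bmp4 a ligand of the BMP family and Nos1 a nitric oxide synthase. Bmp4 counted 0, 0 and 0 UMIs in the 12-month and 1, 0, 1 and 2 UMIs in the 3-month members, while its mean in arterial cells was 52.7 ± 46.2 CPM. Eln averaged 13.3 ± 10 in the members and 319 ± 226 in arterial cells. The connexins of arterial gap junctions followed: Gja4 averaged 10.4 ± 8.01 against 108 ± 46 CPM, and Gja5 had 2 UMIs in 12-month replicate 1 and 0 in the other 6 libraries of members, against 29.3 ± 13 CPM in arterial cells.

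Genes of the Notch pathway differed by member. Among 18 tested genes, 4 were higher and 3 lower than in Slc38a5 cells, and 2 were higher and 8 lower than in arterial cells. Over all genes tested, 10.4% passed against Slc38a5 and 25.2% against arterial cells. The means of 8 of the 18 (44.4%) lay above those of Slc38a5 cells and below those of arterial cells, against 24% of all genes tested. Notch1, Dll4, Jag1, Jag2, Hey1, Hes1 and Notch4 are also on the arterial identity list, so the counts of these lists share genes. The ligand Dll4 averaged 79.0 ± 28.7 CPM in the members, 157 ± 45.3 in arterial cells and 53.8 ± 26.2 in Slc38a5 cells, and passed both tests (edgeR adjusted p = 4.3e-12 and 0.0016). The ligand Jag2 averaged 211 ± 29.3, 371 ± 72.5 and 118 ± 25.9, and the target gene Hey1, a transcriptional repressor of arterial fate, 69.5 ± 12, 181 ± 32.6 and 14.8 ± 6.75 in the same order. The ligand Jag1 and the receptor Notch4 differed from arterial cells (log2 -1.64 ± 0.11 and -0.95 ± 0.08, edgeR adjusted p = 5.7e-15 and 2.4e-12), whereas their differences from Slc38a5 cells did not pass (0.16 ± 0.16 and 0.18 ± 0.11; adjusted p = 0.66 and 0.34). Notch1, a receptor, was higher than in Slc38a5 cells (0.35 ± 0.08) and lower than in arterial cells (-0.43 ± 0.07). Nrarp, a feedback inhibitor, and Mfng and Lfng, fringe glycosyltransferases that modify the receptors, were lower than in Slc38a5 cells, at 10.7 ± 4.05 against 17.6 ± 6.65, 48.1 ± 7.52 against 78.3 ± 11.5 and 26.6 ± 4.18 against 41.2 ± 8.37 CPM.

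Genes of the middle and venous capillary bed were partly present. Of 20 tested capillary zonation genes, 17 were higher and 2 lower than in arterial cells, while 2 were higher and 10 lower than in Slc38a5 cells. Among all genes tested, 25.2% passed against arterial and 10.4% against Slc38a5 cells. Car4, carbonic anhydrase IV of capillary endothelium, had 290 to 678 CPM in the members (median 472), 6.7 to 47.7 CPM in arterial cells (median 36.4) and 795 to 1537 CPM in Slc38a5 cells (median 1167). The 3 sets do not overlap for Car4, and the log2 differences were 3.72 ± 0.11 against arterial (edgeR adjusted p = 4.2e-26) and -1.26 ± 0.09 against Slc38a5 cells (adjusted p = 1.3e-13). Ttyh2, a chloride channel homologue, Ctla2a, a cathepsin inhibitor, Hmcn1, an extracellular hemicentin, Tiam1, a Rac exchange factor, Ankrd37 and the metallothioneins Mt1 and Mt2, which bind zinc and copper, completed the 8 highest against arterial cells. Mt1 averaged 978 ± 267 CPM in the members, 233 ± 120 in arterial cells and 1108 ± 283 in Slc38a5 cells, and its difference from Slc38a5 cells did not pass (log2 -0.18 ± 0.15, edgeR adjusted p = 0.58). Mt1 and Mt2 are close copies, so the split of reads between them is uncertain.

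**Figure D2:**
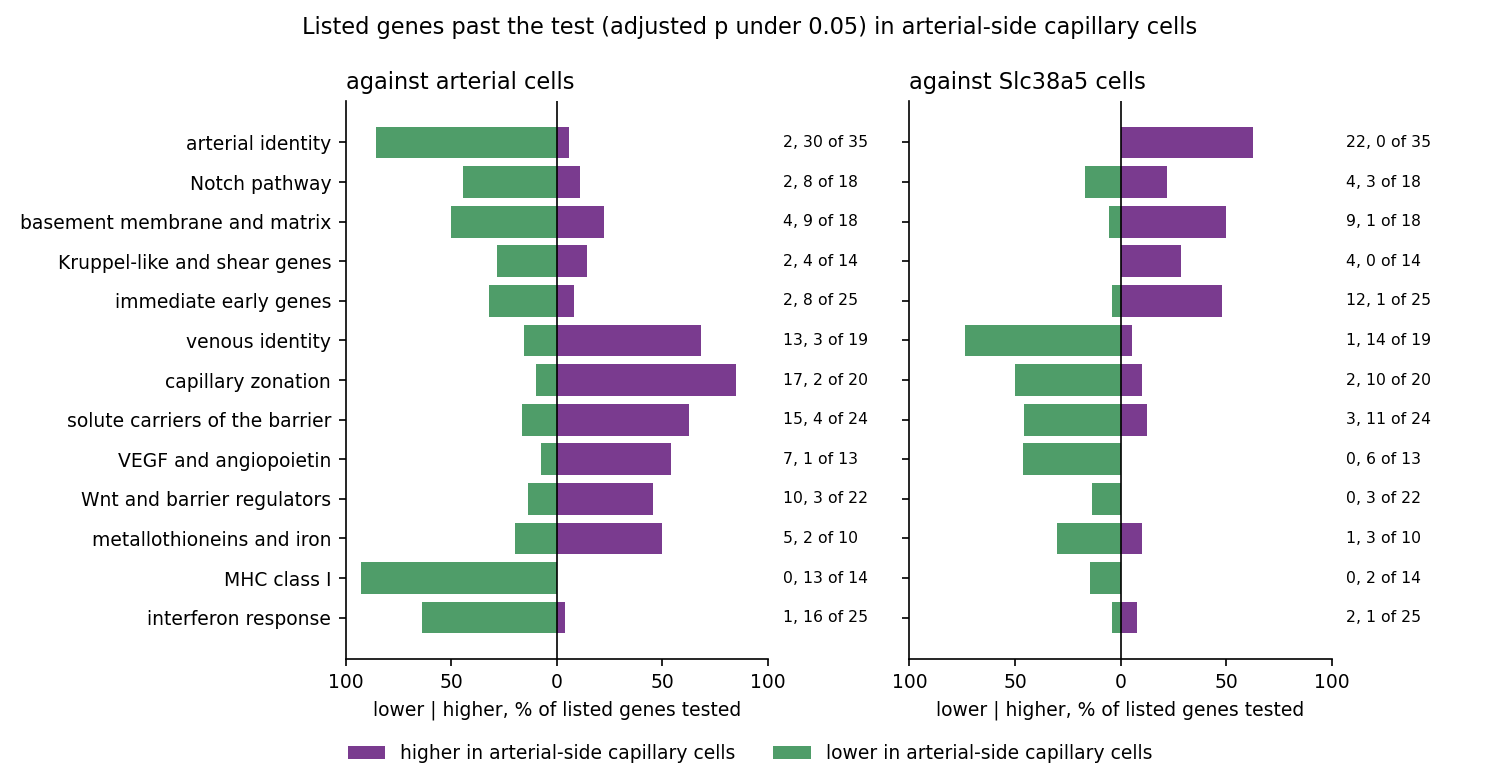
Percent of the tested genes of 13 lists that passed the edgeR test at an adjusted p under 0.05 in arterial-side capillary cells against arterial cells (left) and against Slc38a5 cells (right), higher to the right of 0 and lower to the left, with the counts beside each bar. Over all genes tested, 25.2% passed on the left and 10.4% on the right. Arterial identity has 2 higher and 30 lower of 35 on the left and 22 higher and 0 lower on the right; venous identity has 13 and 3 of 19 on the left and 1 and 14 on the right.

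Venous genes were low in the members without being absent. Of 19 tested genes of the venous identity list, 1 was higher and 14 lower than in Slc38a5 cells, with a median log2 difference of -1.17, and 13 were higher and 3 lower than in arterial cells. Over all genes tested, 10.4% passed against Slc38a5 and 25.2% against arterial cells. Nr2f2, the transcription factor of venous fate, had 7.75 to 27.5 CPM in the members (median 21.3), 4.97 to 10.5 CPM in arterial cells (median 6.7) and 41.6 to 133 CPM in Slc38a5 cells (median 71.3). Vcam1, an adhesion molecule for leukocytes, was lower in the members than in both, at 22.1 ± 22.9 CPM against 338 ± 173 in arterial and 127 ± 133 in Slc38a5 cells. Wnt5a, a Wnt ligand, averaged 10.7 ± 3.64 against 75.3 ± 43.7 CPM in Slc38a5 cells, and Il1r1, the interleukin-1 receptor, 12.7 ± 4.51 against 74.3 ± 91.5. Ndnf, a secreted factor, and Tmsb10, which binds actin monomers, were also among the lowest by rule against Slc38a5 cells.

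Transporters of the blood-brain barrier followed the capillary genes. The lists share genes, among them Slc16a1, Slc7a5 and Slc22a8, so this likeness is partly built in. Of 24 tested solute carriers of the barrier, 15 were higher and 4 lower than in arterial cells, and 3 were higher and 11 lower than in Slc38a5 cells. The share of all genes tested that passed was 25.2% against arterial and 10.4% against Slc38a5 cells. Slc16a1, a transporter of lactate and ketone bodies, averaged 318 ± 177 CPM in the members, 117 ± 91.3 in arterial cells and 663 ± 352 in Slc38a5 cells. Slc38a3, which carries glutamine, averaged 174 ± 35.8, 64.3 ± 16.6 and 253 ± 63.3 in the same order. Slc2a1, the glucose transporter, was lower than in arterial cells (1398 ± 201 against 1711 ± 192 CPM, log2 -0.30 ± 0.10, edgeR adjusted p = 0.025) and was not called against Slc38a5 cells (1448 ± 516 CPM, log2 -0.01 ± 0.10, adjusted p = 0.98). Mfsd2a, a lipid transporter that restrains transcytosis, averaged 279 ± 69.6 in the members, 174 ± 64 in arterial cells (log2 0.70 ± 0.08, adjusted p = 1.4e-09) and 265 ± 83.4 in Slc38a5 cells (0.09 ± 0.08, adjusted p = 0.59). Tfrc, the transferrin receptor, averaged 319 ± 88.5, 92.4 ± 49.6 and 481 ± 122 CPM. Among 9 tested ABC efflux transporters, 3 were higher and 2 lower than in arterial cells, and 0 were higher and 2 lower than in Slc38a5 cells.

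Matrix and signalling lists added detail. For comparison, 25.2% of all genes tested passed against arterial and 10.4% against Slc38a5 cells. Taken in either direction, the Wnt, MHC class I and interferon counts against Slc38a5 cells given below are near the latter share. Of 18 tested basement membrane and matrix genes, 4 were higher and 9 lower than in arterial cells, and 9 were higher and 1 lower than in Slc38a5 cells. Among those higher than in Slc38a5 cells were Col4a1 and Col4a2, the main chains of collagen IV. In the members Col4a1 averaged 541 ± 134 CPM, against 403 ± 104 CPM in Slc38a5 cells. Neither gene was called against arterial cells (edgeR adjusted p = 0.17 and 0.42). Timp3, an inhibitor of matrix proteases, averaged 766 ± 493 in the members, 1385 ± 617 in arterial and 327 ± 161 in Slc38a5 cells. Of 13 tested VEGF and angiopoietin genes, 7 were higher and 1 lower than in arterial cells, and 0 were higher and 6 lower than in Slc38a5 cells, among them the receptors Kdr and Nrp2. Of 22 tested Wnt and barrier regulators, 10 were higher and 3 lower than in arterial cells and 0 higher and 3 lower than in Slc38a5 cells. Genes of MHC class I and of peptide loading for it, which present peptides to T cells, were lower than in arterial cells in 13 of 14 cases and higher in 0, and interferon response genes in 16 of 25 with 1 higher; against Slc38a5 cells, 0 and 2 of these were higher and 2 and 1 lower. Immediate early genes, which respond within minutes to stimuli and to dissociation, were higher than in Slc38a5 cells in 12 of 25 cases and lower in 1, while 2 were higher and 8 lower than in arterial cells, and their part in the other differences was not tested.

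Some genes had their highest mean in the arterial-side capillary cells. Against the mean of the other 3 sets, 710 genes (7.57%) passed, 398 (4.25%) higher and 312 (3.33%) lower. Tcim, a small protein linked to Wnt signalling, led those whose mean was highest in the members. It had 92.8 to 126 CPM in the members (median 121), 18.4 to 85.7 in arterial cells (median 70.4), 4.43 to 24.8 in Slc38a5 cells (median 22.1) and 18.1 to 74.9 in marker-free cells (median 37.1). The members do not overlap with any of the 3 sets, and the log2 difference from their mean was 1.49 ± 0.11 (edgeR adjusted p = 1e-12). Cxcl12, a chemokine that retains leukocytes and progenitors, had 4153 to 6587 CPM in the members (median 4487), 812 to 2890 in arterial cells (median 2171), 1987 to 3569 in Slc38a5 cells (median 2654) and 1903 to 5073 in marker-free cells (median 3922). Cxcl12 passed against the mean of the 3 sets (0.83 ± 0.11, adjusted p = 9.2e-07), against arterial and against Slc38a5 cells, and its difference from marker-free cells alone did not pass (0.39 ± 0.14, adjusted p = 0.12).

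The other genes of this group were Rgcc, Rsad2, Apold1, Mlec, Plekhh2, Gpr155, Syne1, Zfp771, Thbd and Clic5, and the contrast with the mean of the 3 sets does not show a difference from each. Gpr155 averaged 51.0 CPM in the members, 16.3 in arterial, 48.6 in Slc38a5 and 45.7 in marker-free cells, and passed against arterial cells alone (edgeR adjusted p = 0.80 and 0.62 against Slc38a5 and marker-free cells). Apold1 did not pass against arterial cells (adjusted p = 0.12), nor Rgcc against marker-free cells (adjusted p = 0.13). Rgcc, a regulator of the cell cycle, averaged 531 ± 138 CPM in the members, 164 ± 48.6 in arterial, 326 ± 78.5 in Slc38a5 and 394 ± 162 in marker-free cells. Rsad2, an antiviral enzyme of the interferon response, averaged 190 ± 14.4, 130 ± 22.2, 81.6 ± 24.2 and 111 ± 46.4, and it was the 1 of 25 tested interferon response genes that was higher against the mean of the 3 sets, with 5 lower. Thbd, thrombomodulin, which turns thrombin towards anticoagulation, averaged 204 ± 25.8, 111 ± 29.2, 178 ± 61.3 and 144 ± 49.4. Syne1, a nuclear envelope protein, averaged 480 ± 57.6, 333 ± 49.8, 272 ± 51.7 and 341 ± 92.2 CPM. Among the lowest in the members against that mean were Bmp4, Vcam1, Ptgis, Timp2, Eln, Myof and Tmem176a. Eln (13.3 CPM in the members, 13.6 in Slc38a5 and 15.7 in marker-free cells) and Bmp4 differed from arterial cells, and their differences from Slc38a5 cells (edgeR adjusted p = 0.91 and 0.18) and marker-free cells (adjusted p = 0.85 and 0.74) did not pass. Bmp4 also lost its call without barcodes rich in other cells' markers and without the library term. Myof, a membrane repair protein, averaged 18.7 ± 19.3 in the members, 103 ± 72.8 in arterial, 41.5 ± 35.5 in Slc38a5 and 30.5 ± 17.2 in marker-free cells.

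Differences from marker-free cells were fewer and smaller. Of 9375 genes, 408 (4.35%) passed, 190 (2.03%) higher and 218 (2.33%) lower. Arterial identity genes were higher in 14 of 35 cases and lower in 2 (median log2 difference 0.21, against -0.00 over all genes), and venous identity genes higher in 0 and lower in 10 of 19 (median -0.68). These directions were set in part by the gate and are no independent check of the label. Cdh13, Aif1l, Tcim, Stmn2, Egr3, Hey1, Lypd1, Atp13a3, Glul, Adamts1, Cdk19 and Unc5b were the 12 highest by the naming rule. Of 81 genes named in this comparison, 59 kept their call without each library in turn and 15 under every other setting. Of the 12 highest, Egr3 lost its call without 12-month replicate 3, Lypd1 on thinning, and Cdh13, Egr3, Hey1 and Lypd1 among cells within the interquartile range of UMIs. With 1000 or more genes per cell Cdh13 lost its call, and without the library term Cdh13, Stmn2, Egr3, Lypd1 and Unc5b did. Aif1l, an actin-bundling protein, averaged 65.6 ± 10.7 CPM in the members and 21.4 ± 13.1 in marker-free cells (log2 1.33 ± 0.17, edgeR adjusted p = 2.4e-06), and Adamts1, a matrix protease, 388 ± 117 and 180 ± 85.5 (0.98 ± 0.12, adjusted p = 3.4e-07). Car4 (466 ± 129 against 702 ± 213 CPM), Tmsb10 (624 ± 312 against 1339 ± 882) and Nr2f2 (19.8 ± 6.29 against 43.0 ± 9.79) were lower. Dll4 (log2 -0.01 ± 0.12), Jag1 (0.04 ± 0.19) and Notch4 (0.04 ± 0.13) were not called, with adjusted p of 1, 0.97 and 0.95.

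The 12 lowest genes against marker-free cells were mostly genes of other cells. Prlr, Ttr, Trpm3, Igfbp2, Atp1b1, Ptgds, Ecrg4 and Fxyd1 are known from choroid plexus, leptomeninges or glia, and H2-Ab1, H2-Aa, H2-Eb1 and Cd52 from immune cells. The 4 choroid plexus markers summed to 7.35 to 7597 CPM in the members and 13.4 to 80120 CPM in marker-free cells, and the 6 lymphocyte markers to 4.09 to 14 and 3.91 to 249 CPM. Without barcodes in which choroid plexus, erythroid and lymphocyte markers held over 2% of UMIs, a setting chosen after these values were seen, 155 genes were higher and 185 lower. Leaving out 12-month replicate 3, 3-month replicate 2 or 3-month replicate 3 left 270, 255 and 221 calls. With each cell thinned to 1000 UMIs, 166 of 5827 genes passed.

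Among the members and the endothelial barcodes around them, levels of several genes moved in steps with the number of member genes detected. Unc5b averaged 52.7, 63.1, 93.0 and 108 CPM in barcodes with 0, 1, 2 and 3 or more of the 5 genes and no exclusion gene. Tcim averaged 39.4, 61.7, 92.4 and 149 CPM over the same steps. Stmn2 averaged 64.7, 90.7, 141 and 263 CPM, means that 12-month replicate 1 raised. It had 239, 340, 427 and 790 CPM in that library, and 0 to 84.1, 17.7 to 104, 34.8 to 186 and 108 to 297 CPM in the other 6. Car4 averaged 702, 702, 552 and 333 CPM, Nr2f2 43.0, 32.1, 22.7 and 17.1, and Tmsb10 1339, 1134, 786 and 351. Dll4 (79.9, 77.3, 81.3 and 75.5) and Jag1 (44.7, 48.0, 45.8 and 48.3) stayed within a narrow range. Not every arterial identity gene climbed: Mgp averaged 94.1, 42.5, 50.8 and 23.6 CPM, and Gja4 7.96, 4.85, 8.85 and 9.93. The median depth was 1321, 1723.5, 2384 and 3553 UMIs in these 4 groups, and its part in the steps was not tested. The steps describe the gate and carry no test.

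**Figure D3:**
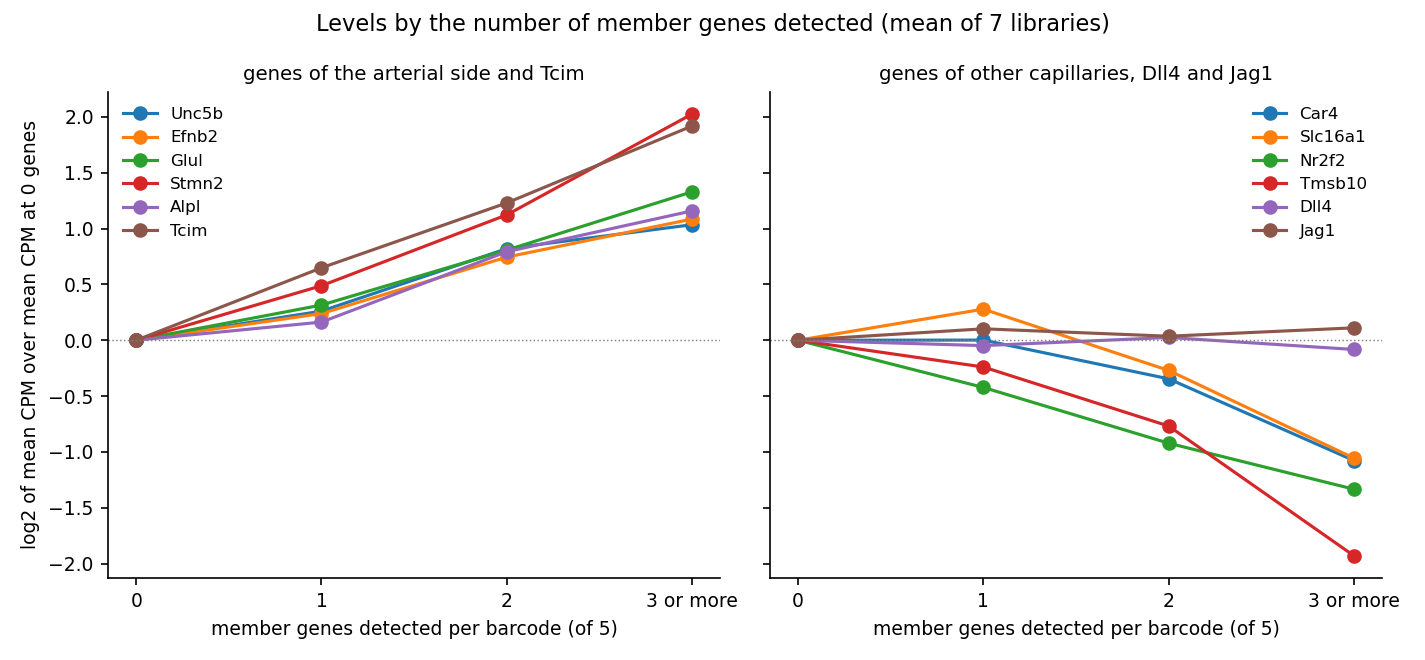
Log2 of the mean CPM over 7 libraries, relative to barcodes with 0 member genes, by the number of the 5 member genes detected in endothelial barcodes without an exclusion gene. Unc5b, Efnb2, Glul, Stmn2, Alpl and Tcim climb with the number, Car4, Slc16a1, Nr2f2 and Tmsb10 are lowest at 3 or more, and Dll4 and Jag1 stay near 0.

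The members also differed by which gene brought them in. Members with Sema3g (1053), a semaphorin of arterial endothelium, averaged 127 CPM of Unc5b, 287 of Alpl and 267 of Car4, and members with Lrrn3 (2412) averaged 92.5, 177 and 534 CPM. Gja4 averaged 16.2 with Sema3g and 5.91 with Lrrn3. A member with several of the genes counts in each of these groups, so they share cells, and no test was made between them.

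The share of endothelial barcodes that were members was lower at 12 months, to an extent that depended on depth. At full depth it was 5.10, 8.52 and 11.8% in the 12-month libraries and 13.4, 14.9, 12.9 and 16.0% in the 3-month libraries, which do not overlap (8.46% ± 3.33 against 14.3% ± 1.40, SD, n = 3 and n = 4; two-sided exact permutation test over 35 splits, p = 0.0286, the smallest it allows). Median UMIs of the members were 1094.5, 2349.5 and 1710 at 12 months and 2783, 4239.5, 3548 and 4050 at 3 months. With each endothelial barcode thinned to 1000 UMIs, the share was 3.70, 5.37 and 8.22% at 12 months and 7.45, 9.63, 9.02 and 12.3% at 3 months. The difference of -3.83 percentage points then did not pass (5.76% ± 2.29 against 9.60% ± 2.02; exact permutation p = 0.0857), since 12-month replicate 3 lay above 3-month replicate 1. Thinning left out 1525 of 3689 endothelial barcodes in 12-month replicate 1 and 35 to 597 in the others. Thinning to 2000 UMIs left out 1349 to 4649 endothelial barcodes of each 12-month library (3083 of 3689 in replicate 1) and 243 to 671 of each 3-month library. At 2000 UMIs the difference was -8.26 points (p = 0.0286, exact permutation), and at 500 UMIs -1.52 points (p = 0.0857). Member and exclusion genes were both read again on the thinned counts, so thinning could also admit barcodes that lost an exclusion gene. At 2000 UMIs, 3-month replicates 2 and 4 held 521 and 548 members, against 504 and 537 at full depth. The thinned shares are therefore not those of the same set of cells.

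**Figure D4:**
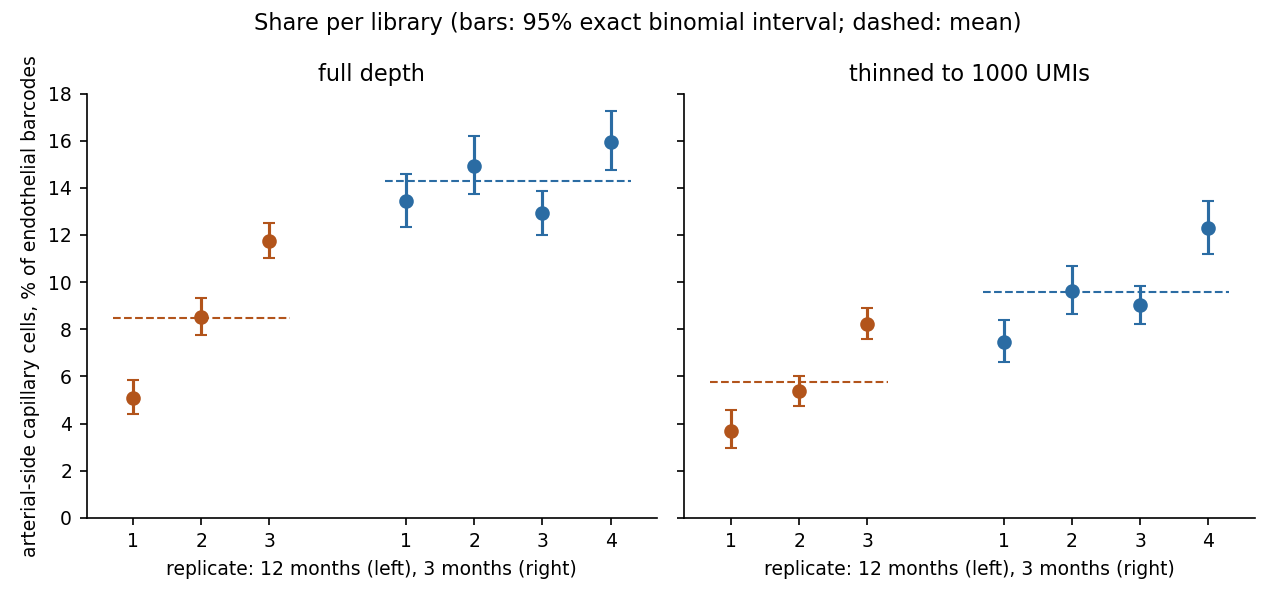
Arterial-side capillary cells as a percent of endothelial barcodes in each library, at full depth (left) and with each barcode thinned to 1000 UMIs (right), 12 months in orange and 3 months in blue; bars are 95% exact binomial intervals, which cover counting error only, and dashed lines are means. The ages are apart at full depth, at 8.46 and 14.3%, and overlap after thinning, at 5.76 and 9.60%.

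Within the members, 152 of 9625 genes (1.58%) differed between 12 and 3 months, 123 (1.28%) higher and 29 (0.301%) lower at 12 months. For 144 of them the ages do not overlap, which follows in part from the call itself and is no separate support. The count ran from 57 without 12-month replicate 2 to 332 without 3-month replicate 1, and was 101 without 12-month replicate 3 and 94 without 3-month replicate 4. Sex is not balanced: 3-month replicates 1 and 2 had 632 and 891 CPM of Xist, a transcript of the inactive X chromosome, and 0 of the Y gene Ddx3y, and the other 5 libraries had 78.9 to 123 CPM of Ddx3y.

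Immediate early genes were the list with the most calls by age. Of 25 tested, 13 were higher and 0 lower, with a median log2 difference of 0.97 against 0.02 over all genes. Atf3, a stress-induced transcription factor, had 1644, 550 and 565 CPM at 12 months and 85.8, 88.1, 80.6 and 65.7 CPM at 3 months, and 12-month replicate 1 stands above all others. Its log2 difference was 3.57 ± 0.31 (edgeR adjusted p = 3.79e-06). The AP-1 subunit Fosb had 1117, 1481 and 1649 against 139, 409, 259 and 170 CPM, and Fos 4953, 3691 and 3388 against 1118, 889, 808 and 796 CPM. Neither overlaps between the ages, and the log2 differences were 2.64 ± 0.31 and 2.25 ± 0.22 (edgeR adjusted p = 0.000132 and 1.03e-05). Socs3, a feedback inhibitor of cytokine signalling, averaged 168 ± 47.9 against 32.7 ± 8.43 CPM. Klf4 and Klf2, transcription factors that respond to flow, averaged 1925 ± 279 against 693 ± 168 and 3414 ± 393 against 2026 ± 196 CPM. Fam71a, which lies beside Atf3 on chromosome 1 (191162584 to 191164817, against 191170296 to 191218039 for Atf3, GRCm38), counted 16, 105 and 102 UMIs at 12 months and 1, 2, 2 and 1 UMIs at 3 months; reads running through from a neighbour cannot be told apart from its own.

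Adhesion and vessel genes were among the others higher at 12 months. Icam1, a ligand of leukocyte integrins, had 69.5, 45.1 and 64.3 CPM at 12 months and 17.4, 22.5, 15.3 and 13.5 CPM at 3 months (log2 1.86 ± 0.23, edgeR adjusted p = 0.00025). Vcam1 had 65.4, 40.9 and 19.9 against 3.87, 9.43, 7.64 and 7.73 CPM. Stmn2, Mgp, Col18a1 and Crip1 were the 4 called of 33 tested arterial identity genes, all higher, with Mgp at 172, 73.2 and 39.8 against 5.81, 12.7, 4.58 and 7.73 CPM. Emp1, an epithelial membrane protein, had 143, 51.9 and 18.1 against 2.58, 13.1, 4.2 and 4.64 CPM and lost its call without 12-month replicate 2. Ankrd37, a hypoxia-responsive gene, averaged 123 ± 42.6 against 40.1 ± 9.85 CPM.

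Genes lower at 12 months included clock, transporter and junction genes. Dbp, an output factor of the circadian clock, had 12.3, 19.6 and 14.0 CPM at 12 months and 86.5, 52.5, 75.6 and 44.1 CPM at 3 months (log2 -1.87 ± 0.30, edgeR adjusted p = 0.0026). Nr1d1, a repressor in the clock loop, averaged 44.6 ± 7.57 against 99.2 ± 15.6 CPM, and Bhlhe40, another clock repressor, was higher, at 221 ± 64 against 77.0 ± 23.9 CPM; these were the 3 called of 13 tested clock genes. No label states the hour of dissection. Slc7a5, the large neutral amino acid transporter, had 209, 268 and 239 against 550, 849, 759 and 595 CPM (log2 -1.40 ± 0.21, edgeR adjusted p = 0.0017), and it was the 1 called of 23 tested solute carriers of the barrier. Ivns1abp had 61.4, 87.7 and 76.0 against 241, 336, 289 and 249 CPM. Gja1, the gap junction protein connexin 43 that astrocytes also carry, averaged 14.1 ± 3.48 against 57.7 ± 13.1 CPM, and Dab2, an endocytic adaptor, 60.4 ± 8.02 against 111 ± 11.6 CPM. Dab2 lost its call on leaving out any 1 of 6 of the 7 libraries, the exception being 3-month replicate 1. Nr1d1 lost its call without any 1 of the 12-month libraries or 3-month replicate 3. Auts2, Hlx, Nrep, Smad5, Sox4 and Gpcpd1 completed the 12 lowest by rule, and each of these 6 lost its call on leaving out at least 1 library.

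**Figure D5:**
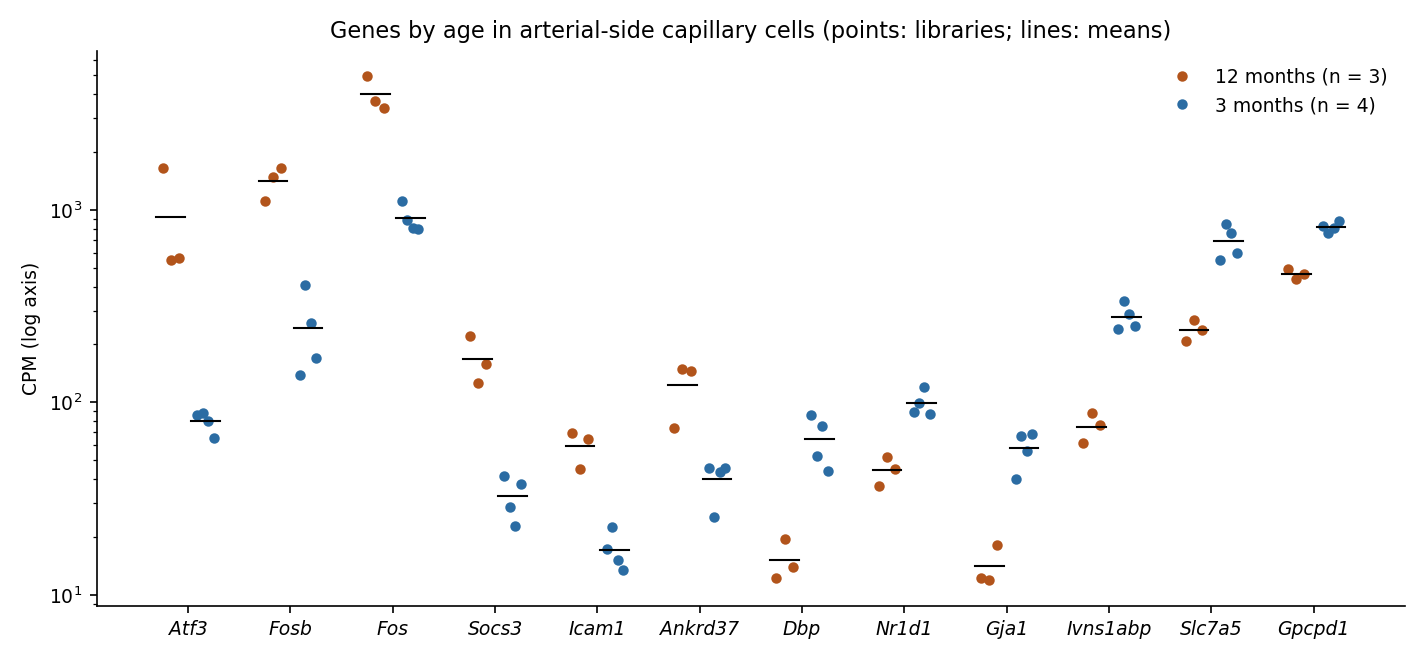
CPM on a log axis of 12 genes in arterial-side capillary cells, 12 months (orange) left of 3 months (blue) for each gene; points are libraries and lines are means. Atf3, Fosb, Fos, Socs3, Icam1 and Ankrd37 are higher at 12 months and Dbp, Nr1d1, Gja1, Ivns1abp, Slc7a5 and Gpcpd1 lower, with no overlap of the ages.

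Markers of microglia moved with age in the members. The 8 microglia markers summed to 108 to 227 CPM at 12 months and 40.7 to 69.3 CPM at 3 months, with none at 0 in all libraries, and 5 of 6 tested were higher at 12 months. Smooth muscle markers summed to 42.7 to 118 against 16.8 to 52.0 CPM, pericyte markers to 32.7 to 159 against 37.4 to 103 CPM, erythroid markers to 14520 to 36550 against 6955 to 24490 CPM, and astrocyte markers to 24.5 to 124 against 79.8 to 124 CPM. The part of these cells in the age differences was not tested. The age difference was also set against that in marker-free cells. Of 8982 genes, 6 (0.0668%) passed the interaction test in edgeR, and none of the 24 genes named for age was among them; their interaction adjusted p was 0.97 to 1. Over these 8982 genes, 456 had an unadjusted p under 0.05 for the interaction in edgeR, about as many as chance alone would give.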

How the data were processed

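Each deposited matrix lists UMI counts, not normalized, for every gene and barcode. The submitters' processing notes name Cell Ranger 4.0.0 (12 months) and 6.1.1 (3 months), mm10 and Seurat; whether intronic reads were counted is not stated there. The members, gene lists and comparisons were chosen with earlier results of these data known. Counts were summed per library and set, with 20 or more cells required. Members' summed UMIs were 244487 to 2619147 per library. edgeR 4.0.16 in R 4.3.3 was used with TMM scaling and filterByExpr on all genes, gate genes not counted among calls, and was tested on simulated data. The p-values by age measure the spread between libraries, taken as 1 mouse each. Those of the set comparisons and the interaction, fitted with the library as a term, measure how far differences within a library vary between libraries. Pairs of libraries shared 1 to 24 barcodes, and 3 member barcodes recurred. GENCODE for GRCm38 placed 32158 of 32285 gene IDs.

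Genes were named by rule among those past the test, with 50 CPM or more in either group and leaving out predicted genes, genes on X and Y, and mitochondrial or ribosomal ones: the 12 highest and 12 lowest against marker-free cells, 8 and 8 against arterial and Slc38a5 cells, 12 and 8 against the mean of the 3 sets, 12 and 12 by age without overlap, up to 4 of each list, and any arterial, venous and Notch list member. Mfsd2a, Slc2a1, Tfrc, Kdr, Mylk, Klf2, Bhlhe40, Xist and Ddx3y were named outside it, after their values were seen. Alternatives were DESeq2 1.42.0, no filter beyond 1 count, thinning to 1000 UMIs, 3 or more member genes, doublets removed with scrublet (scanpy 1.11.5), 1000 genes per cell, cells within the interquartile range of UMIs, leaving out each library, and fits with or without a library or replicate term. Thinned shares used a seeded draw. Some genes that the rule took are not reported here.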

Additional observations from a re-analysis of the deposited data

Results flagged for a closer look

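In the 3-month members, Ankrd37 had 25.41 CPM in replicate 2, far below 43.5 to 45.8 CPM in the other 3 libraries. Apold1, an endothelial immediate early gene, had 190.4 CPM in 3-month replicate 1, far below the other 3 libraries. Of 46 groups of 4 libraries examined, these 2 stood apart, and chance sets about 1 in 20 apart. The low Apold1 value is not particular to the members. In 3-month replicate 1, Apold1 was also lowest of the 7 libraries in marker-free, arterial and Slc38a5 cells, at 84.0, 122.5 and 70.8 CPM.

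The difference between 12 and 3 months was another one in the members than in marker-free cells for 6 genes, by edgeR's interaction test. The log2 difference of differences was 2.834 for Cd74 and 2.918 for H2-Aa, which serve MHC class II, 2.739 for Ighm and 2.502 for Igkc, which encode antibody chains, 3.593 for Tyrobp, a signalling adaptor of myeloid cells, and 1.988 for Vcam1. The edgeR adjusted p-values were 0.00441 for Cd74, 0.0471 for H2-Aa, 0.00957 for Ighm, 0.00441 for Igkc, 0.0357 for Tyrobp and 0.0471 for Vcam1. Within the members alone, Cd74, H2-Aa, Ighm and Igkc did not pass by age (edgeR adjusted p = 0.36, 0.39, 0.40 and 0.86). Cd74 had 4.09, 40.9 and 38.6 CPM at 12 months and 1.94, 34.0, 9.93 and 18.2 CPM at 3 months in the members. Its values in marker-free cells were 39.9, 153 and 81.8 CPM at 12 months and 0, 320, 200 and 852 CPM at 3 months. Vcam1 had 65.4, 40.9 and 19.9 CPM at 12 months and 3.87, 9.43, 7.64 and 7.73 CPM at 3 months in the members. In marker-free cells Vcam1 had 174, 32.7 and 51.4 CPM at 12 months and 15.6, 69.3, 45.4 and 67.0 CPM at 3 months. The 6 lymphocyte markers summed to 4.78 to 65.4 CPM at 12 months and 3.91 to 249 CPM at 3 months in marker-free cells. Each of the 6 calls was lost on leaving out at least 1 library.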

How the results depend on the processing

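The share difference by age was -5.849 points unthinned, -8.257 at 2000 UMIs and -1.008 with 3 or more member genes, each at the smallest exact permutation p of 0.0286, and -5.063 to -2.802 without 1 library. Counts of called genes were as follows against marker-free cells (408): 841 with no filter, 166 thinned, 635 with 3 or more member genes, 646 with 1000 genes per cell, 199 within the interquartile range of UMIs, and 221 to 577 without 1 library. Against arterial cells (2361) they were 1153 thinned, 1548 with 3 or more member genes, 1036 within the interquartile range and 1986 to 2442 without 1 library. Against Slc38a5 cells (977) they were 512 thinned and 768 to 1021 without 1 library, and against the mean of the 3 sets (710) 363 thinned and 518 to 823. By age (152) they were 418 with no filter, 47 with 3 or more member genes and 57 to 332 without 1 library. For the interaction (6) they were 37 with no filter, 2 with DESeq2, 1 with doublets removed, 2 with 1000 genes per cell, 13 without barcodes rich in other cells' markers, 0 without 12-month replicate 3 and up to 24 without 3-month replicate 1. Without the library term (no replicate block) the counts were 70, 966, 270 and 138 against marker-free, arterial and Slc38a5 cells and their mean, and 0 for the interaction. Same-numbered libraries of the 2 ages correlated at -0.017 to 0.095 over 3 pairs, and differently numbered ones at -0.103 to 0.051. So few pairs cannot show whether the numbers pair the libraries. With the replicate block the age count was 106. The difference from marker-free cells reversed for Ecrg4 (0.5608) and Mt3 (0.4116) without barcodes rich in other cells' markers. The cause of these changes was not tested. Of 24 genes named by age, 14 kept their call without each library in turn and 14 under every other setting.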
